A study of Mus musculus with 15 samples.

Results

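The genes that load and display peptides on major histocompatibility complex (MHC) molecules were followed in the trigeminal ganglion (TG), the ganglion that holds the cell bodies of the corneal sensory nerves. They were 10 genes, chosen by symbol among the 55573 genes of the table: the class I heavy chains H2-K1 and H2-D1, their light chain B2m, the peptide transporter subunit Tap1, the class II chains H2-Aa, H2-Ab1 and H2-Eb1, the class II invariant chain Cd74, and the transactivators Ciita (class II) and Nlrc5 (class I). All 10 had a row and passed the filter on low counts, which 16567 genes passed. The samples were right TG of male CD1 mice, 10 weeks old, with an injured right cornea. For the injury, a 2 mm trephine marked the corneal centre, from which epithelium and anterior stroma were then taken off. Mice received the vehicle, RvD6-standard (the lipid mediator resolvin D6, RvD6) or RvD6-isomer (its stereoisomer RvD6si) 3 times a day for 12 days, with 5 libraries per group. Every mouse, vehicle included, carried the injury, and each library came from 1 ng of RNA of a whole ganglion, so fewer cells of a type and less RNA per cell cannot be told apart. CD1 is an outbred stock whose animals can differ in MHC haplotype, and all reads were aligned to a single reference genome. The haplotypes were not typed.

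MHC class I molecules, made of a heavy chain and beta-2-microglobulin, are found on nearly all nucleated cells and show peptides that TAP has carried from the cytosol into the endoplasmic reticulum. MHC class II molecules are alpha and beta chain pairs, held by the invariant chain until a peptide is loaded in the endosome, and are mainly made by dendritic cells, macrophages and B cells, including resident macrophages of sensory ganglia. The transactivator CIITA acts through the X and Y boxes of class II promoters, NLRC5 through the like elements of class I promoters, and interferon gamma raises both pathways.

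The promoters are shown first because such elements are known controls of class I and class II promoters. RefSeq (GRCm38.p6) held promoters for 6 of the 10 genes, namely H2-K1, H2-D1, B2m, Tap1, H2-Aa and H2-Eb1. Entries for H2-Ab1, Cd74, Ciita and Nlrc5 were missing. Windows of 250 bases before and 50 bases after the start were searched on both strands for a Y box (CTGATTGG), a kappa B site (GGGATTCCC) and an interferon-stimulated response element (GAAANNGAA). The shares of all 32851 promoters that held them were 4.1%, 0.353% and 8.56%. Below, the 250 bases before the start are given 5′ to 3′ along the gene for a steady and a variable class II gene and for 3 class I pathway genes, with the matches in capitals. They lie at chr17:34287824-34288073 on the minus strand (H2-Aa) and, on the plus strand, at chr17:34305617-34305866 (H2-Eb1), chr17:35262844-35263093 (H2-D1), chr2:122147437-122147686 (B2m) and chr17:34187306-34187555 (Tap1). The starts are those of the promoter entries. For H2-D1 the printed bases lie inside the gene as counted, which begins at 35262730, so its positions hold for the listed start only.
H2-Aa: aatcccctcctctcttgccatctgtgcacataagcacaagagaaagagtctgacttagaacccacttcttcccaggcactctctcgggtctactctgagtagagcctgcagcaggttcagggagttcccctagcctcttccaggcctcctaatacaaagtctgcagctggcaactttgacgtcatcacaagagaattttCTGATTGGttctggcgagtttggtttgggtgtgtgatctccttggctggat
H2-Eb1: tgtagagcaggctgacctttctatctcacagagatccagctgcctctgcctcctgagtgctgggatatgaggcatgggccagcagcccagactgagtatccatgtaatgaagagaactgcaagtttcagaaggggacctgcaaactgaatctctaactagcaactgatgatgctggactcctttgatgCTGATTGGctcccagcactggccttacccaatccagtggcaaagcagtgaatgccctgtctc
H2-D1: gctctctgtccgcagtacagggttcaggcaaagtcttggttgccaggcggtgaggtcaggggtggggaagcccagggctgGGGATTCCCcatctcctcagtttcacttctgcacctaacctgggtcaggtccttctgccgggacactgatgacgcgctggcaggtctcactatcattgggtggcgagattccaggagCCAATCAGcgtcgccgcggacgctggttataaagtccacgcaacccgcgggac
B2m: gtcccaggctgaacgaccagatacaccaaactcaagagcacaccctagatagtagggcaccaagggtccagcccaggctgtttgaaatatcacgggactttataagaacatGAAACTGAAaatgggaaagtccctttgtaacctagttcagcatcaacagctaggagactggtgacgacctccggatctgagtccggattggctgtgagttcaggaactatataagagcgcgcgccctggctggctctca
Tap1: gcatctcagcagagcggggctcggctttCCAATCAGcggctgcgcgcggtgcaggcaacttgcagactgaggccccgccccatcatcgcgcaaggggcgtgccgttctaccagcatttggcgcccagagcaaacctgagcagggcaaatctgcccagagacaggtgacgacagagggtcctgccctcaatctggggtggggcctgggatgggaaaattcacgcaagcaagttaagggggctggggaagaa
With bases counted back from the start, the Y box began at -51 in H2-Aa and at -62 in H2-Eb1 along the gene, and lay at -53 to -46 in H2-D1 and -222 to -215 in Tap1 on the opposite strand. H2-D1 had the kappa B site from -170 to -162, and H2-K1 had it from -110 to -102 or -124 to -116, by which of its 2 listed starts is taken. H2-K1 also had the reversed Y box at its start. The response element was matched in B2m, from -139 to -131, and the Y box was not. These matches describe the letters of the reference and not binding. Only the stated letters were searched, so an element spelled otherwise would not be matched, and no match does not mean no element.

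Between 4125962 and 9903396 reads per library fell on genes. Several libraries stood apart in the genes of other tissues. The summed level of 9 neutrophil and precursor genes, in CPM (counts of a gene relative to the library total, scaled by the TMM method), was 692 to 2243 in RvD6, 110.2 to 590.4 in vehicle and 54.4 to 126 in RvD6si replicates 11 to 14, but 1967 in RvD6si replicate 15. The 8 erythroid genes ran in the same way, from 5755 to 10620 in RvD6, 2382 to 5067 in vehicle and 936 to 2613 in RvD6si, with 12030 in replicate 15. Skeletal muscle genes (7) summed to 2048 and 2950 in RvD6 replicates 8 and 9, and to 386, 123.5 and 417 in replicates 6, 7 and 10, against 21.6 to 170.3 in vehicle and 18.6 to 34.6 in RvD6si. In RvD6 against vehicle all 7 muscle genes had an unadjusted p under 0.05 by edgeR, with a median log2 fold change of 4.16, and were called by DESeq2, and all 7 were called lower in RvD6si against RvD6 by edgeR. The 6 Schwann cell genes, at 13470 to 23900, and the 8 sensory neuron genes were found in all 15 libraries. The neuron genes summed to 5529 to 6569 in vehicle, 3544 to 5812 in RvD6 and 4592 to 6580 in RvD6si, and in RvD6 against vehicle 7 of 8 had a negative log2 fold change, 3 of them with an unadjusted p under 0.05. The 6 fibroblast genes summed to 1370 to 1671, 1379 to 2262 and 1182 to 1603, and all 6 had a positive log2 fold change in RvD6 against vehicle, with 2 called by DESeq2. The 5 satellite glial cell genes summed to 6677 to 8054 in vehicle, 4850 to 6559 in RvD6 and 4449 to 6466 in RvD6si. All libraries given a lipid thus lay below all vehicle libraries for this sum. Most of it was Apoe, at 6716 ± 522 CPM in vehicle (SD, n = 5), 5167 ± 609 in RvD6 and 5089 ± 838 in RvD6si. Against vehicle, the means of Fabp7 and Glul were also lower in both lipid groups, and those of Kcnj10 and Cdh19 were higher in both. In RvD6si against vehicle 3 of the 5 satellite glial cell genes had a negative log2 fold change. DESeq2 called 1 of them lower, beside 8.13% of its genes called in either direction. For RvD6 against vehicle, 7.63% of all genes were higher and 5.99% lower at an unadjusted p under 0.05 (edgeR), and DESeq2 called 1.92%.

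**Figure D1:**
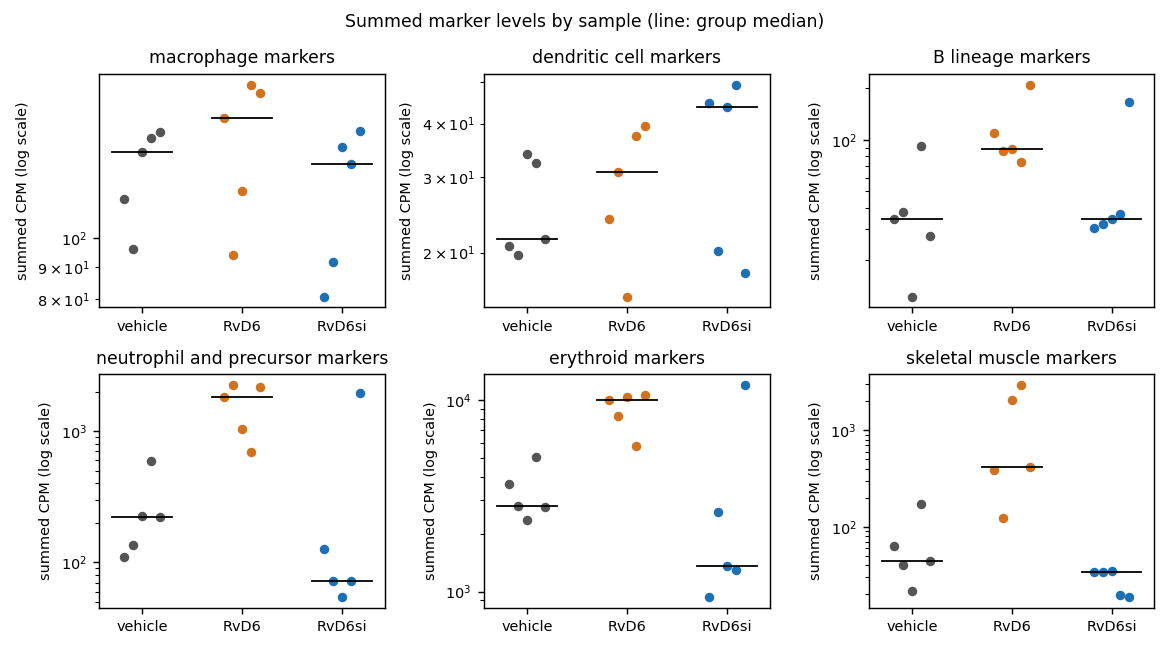
Summed CPM of 6 marker lists on a log axis, with 1 point per library and a line at the group median. All 5 RvD6 libraries and RvD6si replicate 15 lie high for neutrophil and erythroid genes, and RvD6 replicates 8 and 9 for muscle genes.

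Among cells that use class II, 10 macrophage genes summed to 96.0 to 147 CPM in vehicle, 94.0 to 174 in RvD6 and 80.7 to 147 in RvD6si. The 8 dendritic cell genes summed to 19.8 to 34.0, 15.8 to 39.5 and 17.9 to 49.3, with all 8 detected in each group. B lineage genes (10) summed to 12.2 to 92.5 CPM in vehicle, 74.7 to 210.1 in RvD6 and 30.5 to 36.8 in RvD6si, apart from 166 in replicate 15. All 7 B lineage genes tested had a positive log2 fold change in RvD6 against vehicle, with a median of 1.67, but none was called. T cell genes (8) summed to at most 10.1 CPM in any library, and Cd3g and Cd5 were at 0 throughout vehicle, Cd8a throughout RvD6, and Cd3e and Cd8a throughout RvD6si. The macrophage, dendritic cell and T cell sums overlapped between all groups, and the B lineage sums were highest on median in RvD6. Of the 10 macrophage genes, 6 had a positive and 4 a negative log2 fold change in RvD6 against vehicle. At an unadjusted p under 0.05, 3 were higher there (edgeR), beside 7.63% of all genes, and DESeq2 called 1 higher, beside 1.92% called. In RvD6si against RvD6, 4 macrophage genes were lower and 0 higher at that level (edgeR), beside 4.64% and 4.18% of all genes. DESeq2 called 1 dendritic cell gene higher in RvD6si against vehicle, beside 8.13% of its genes called. It gave no adjusted p there for 4 of the 6 dendritic cell genes tested. By edgeR no macrophage or dendritic cell gene was called in any comparison. The part of the neutrophil, erythroid, muscle, neuron, satellite glial cell, fibroblast, macrophage, dendritic cell and B lineage levels in the values below was not tested.

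No member was called changed by edgeR at an adjusted p of 0.05 in any of the 3 comparisons. In RvD6 against vehicle 0 of 10 were called, beside 0.0% of all genes, and 4 had an unadjusted p under 0.05 (Tap1, Cd74, H2-Aa and H2-Ab1), all higher in RvD6, beside 7.63% of all genes that were higher at that level. DESeq2 called 2, Tap1 and Cd74, beside 1.92% of its genes. In RvD6si against vehicle 0 of 10 were called, beside 0.67%, and 2 had an unadjusted p under 0.05, Tap1 higher (beside 8.69% of all genes) and H2-Ab1 lower (beside 7.3%). DESeq2 called 0 of 8 there, beside 8.13%, and gave no adjusted p for Ciita and Nlrc5. In RvD6si against RvD6 0 of 10 were called, beside 0.235%, and 3 had an unadjusted p under 0.05 (H2-Ab1, H2-Aa and B2m), all lower in RvD6si, beside 4.64% that were lower. DESeq2 called 1, H2-Ab1, beside 0.936%.

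The fitted log2 fold changes were positive for all 10 members in RvD6 against vehicle, as for 8642 of all 16567 genes. Their median was 0.36 (range 0.06 to 1.33), where the median of all genes was 0.02. Those of H2-D1, H2-Eb1 and Ciita turned negative in some fits that left out 1 library. In RvD6si against vehicle 4 were positive and 6 negative, with a median of -0.10 against 0.01 for all genes. In RvD6si against RvD6 all 10 were negative, as for 8365 of all 16567 genes, with a median of -0.49 against -0.004 for all genes. Here H2-Eb1 turned positive in some fits that left out 1 library. The comparisons share the vehicle or the RvD6 libraries, so their directions are not separate observations.

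**Figure D2:**
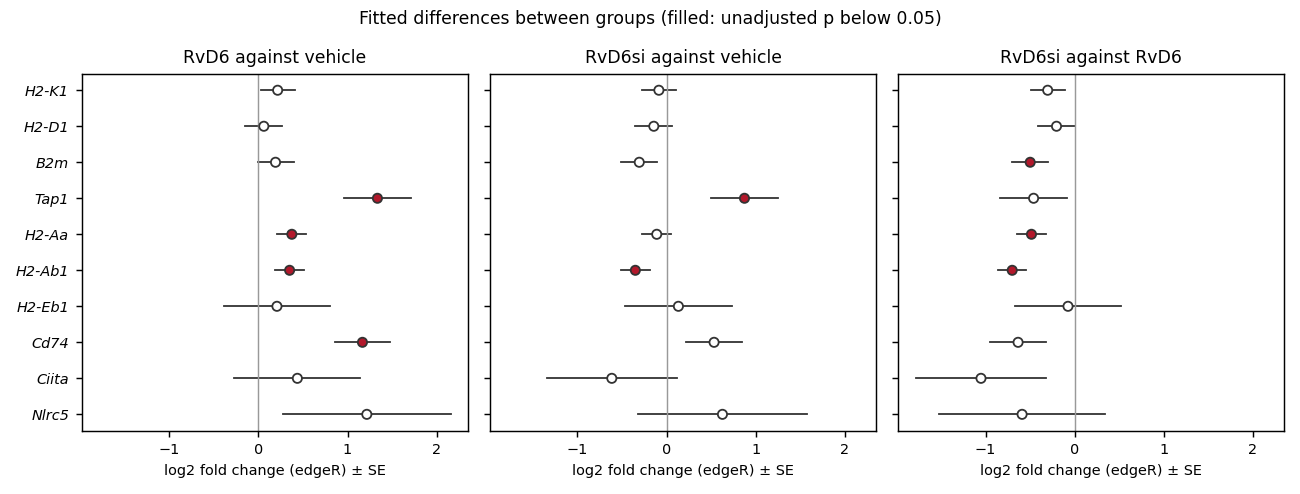
Log2 fold change with its standard error (edgeR) of the 10 genes in the 3 comparisons; filled points had an unadjusted p under 0.05. All points lie above 0 in RvD6 against vehicle and below 0 in RvD6si against RvD6, and none passed the adjusted threshold.

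Per length, the order of the members in vehicle ran over 3 orders of level. In TPM, transcript levels that divide the counts by exonic length and set every library to the same sum, the vehicle means were 717 ± 245 (SD, n = 5) for B2m, 299 ± 58.5 for H2-D1, 79.7 ± 9.68 for H2-Ab1, 65.8 ± 9.98 for H2-K1, 56.2 ± 34.0 for H2-Eb1, 47.3 ± 7.56 for H2-Aa, 19.4 ± 2.81 for Cd74, 2.42 ± 0.986 for Tap1, 0.365 ± 0.117 for Ciita and 0.270 ± 0.305 for Nlrc5. The vehicle ranges of H2-Ab1, H2-K1, H2-Eb1 and H2-Aa overlapped between neighbours, as did those of Ciita and Nlrc5. The other neighbours did not overlap in vehicle.

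Of the class I genes, the heavy chain H2-K1 (chromosome 17, 33996017 to 34000347, minus strand, GRCm38) had 68.3, 81.7, 86.0, 75.7 and 105.0 CPM in vehicle replicates 1 to 5. In RvD6 replicates 6 to 10 it had 68.1, 118, 115, 91.5 and 92.2, and in RvD6si replicates 11 to 15 57.3, 74.9, 103, 95.9 and 60.7. The 3 groups overlapped. RvD6 against vehicle gave a log2 fold change of 0.22 ± 0.19 (SE; adjusted p = 0.659, edgeR), and RvD6si against RvD6 gave -0.30, with a 95% interval from -0.71 to 0.10. The heavy chain H2-D1 (chromosome 17, 35262730 to 35267499) had 299, 277, 279, 428 and 378 CPM in vehicle, 246, 473, 354, 335 and 323 in RvD6, and 324, 301, 172, 283 and 425 in RvD6si. The highest and the lowest H2-D1 levels lay in the groups given a lipid, and the groups overlapped. Its fitted log2 fold changes were 0.06 ± 0.21 for RvD6 and -0.14 ± 0.21 for RvD6si, both against vehicle, with adjusted p of 0.933 and 0.791 (edgeR). Its interval for RvD6si against RvD6 ran from -0.64 to 0.23.

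H2-K1 and H2-D1 share sequence with other class I genes. Of the 75-base windows of their annotated transcripts, 3.10% (H2-K1) and 5.56% (H2-D1) were also found in transcripts of another gene, such as H2-Q10, H2-Q7 or H2-T23. The methods of the study do not say how reads that fit several places were counted. The ratio of H2-D1 to H2-K1 in TPM ranged from 1.90 to 7.97 over the 15 libraries, with a median of 4.12.

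The light chain B2m (chromosome 2, 122147686 to 122153083), which pairs with every class I heavy chain, had 162, 214, 284, 419 and 258 CPM in vehicle. It had 296, 316, 273, 321 and 321 in RvD6 and 147, 236, 200.1, 236 and 263 in RvD6si. All 5 RvD6si libraries lay below all 5 RvD6 libraries, as for 1.1% of all genes, while vehicle spanned both. The log2 fold change of RvD6si against RvD6 was -0.50 ± 0.20 (95% interval -0.92 to -0.07, unadjusted p = 0.024, adjusted p = 0.468, edgeR). The exact permutation p was 0.00794, the smallest that 5 against 5 samples can give (two-sided).

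Tap1 (chromosome 17, 34187553 to 34197225), a subunit of the peptide transporter, had 2.62, 5.34, 5.80, 5.50 and 9.40 CPM in vehicle. In RvD6 it had 14.2, 23.9, 11.5, 8.05 and 14.5 CPM, with 4 of 5 above every vehicle library. In RvD6si it had 9.35, 8.91, 11.3, 5.20 and 18.1 CPM, with 2 of 5 above every vehicle library. RvD6 against vehicle gave a log2 fold change of 1.33 ± 0.38 (2.52-fold, 95% interval 0.54 to 2.13, unadjusted p = 0.00239, adjusted p = 0.172, edgeR), and DESeq2 gave an adjusted p of 0.0357. RvD6si against vehicle gave 0.87 ± 0.38 (adjusted p = 0.263, edgeR). Without replicate 15, the RvD6si library rich in neutrophil, erythroid and B lineage genes, it was 0.60, with an unadjusted p of 0.129. The stereoisomers differed by -0.46 (95% interval -1.24 to 0.32). Tap1 overlaps Psmb9 on the other strand, and 2.40% of its windows were shared with that gene.

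**Figure D3:**
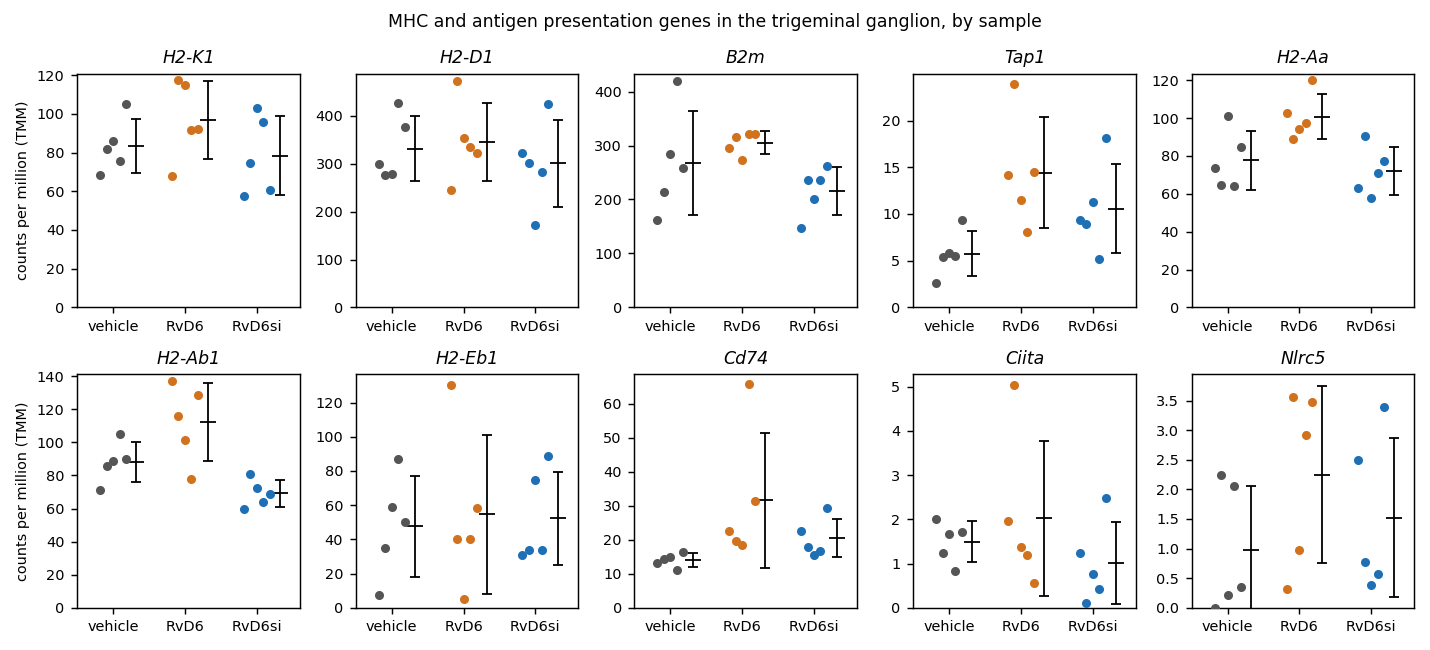
CPM of the 10 genes, with 1 point per library in replicate order within each group, and the mean and SD (n = 5) beside them; bars that reach below 0 end at the axis. The 5 RvD6 libraries lie above vehicle for Cd74, and for B2m the 5 RvD6si libraries lie below RvD6.

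Of the class II genes, the alpha chain H2-Aa (chromosome 17, 34282744 to 34287823, minus strand) had 73.8, 64.5, 101, 64.3 and 84.5 CPM in vehicle, 103, 89.0, 94.1, 97.5 and 120.2 in RvD6, and 63.3, 90.4, 57.9, 71.2 and 77.3 in RvD6si. RvD6 had the highest mean, and vehicle replicate 3 and RvD6si replicate 12 lay inside its range. Its beta chain partner H2-Ab1 (chromosome 17, 34257689 to 34269419) had 71.4, 85.8, 88.8, 105.0 and 90.1 CPM in vehicle, 137, 116, 102, 78.2 and 129 in RvD6, and 59.8, 80.9, 72.5, 63.7 and 68.9 in RvD6si. RvD6 replicate 9, rich in muscle genes, was the lowest of its group, and 4 of 5 RvD6si libraries lay below every RvD6 library.

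For H2-Aa the log2 fold change was 0.37 ± 0.16 in RvD6 against vehicle (adjusted p = 0.321), -0.11 ± 0.16 in RvD6si against vehicle (adjusted p = 0.792) and -0.48 in RvD6si against RvD6 (95% interval -0.82 to -0.14, adjusted p = 0.334), all by edgeR. For H2-Ab1 these were 0.35 ± 0.16 (adjusted p = 0.344), -0.35 ± 0.16 (adjusted p = 0.291) and -0.70 ± 0.16 (95% interval -1.04 to -0.36, unadjusted p = 0.000353, adjusted p = 0.0933). The last difference was the largest of the members relative to its error. DESeq2 gave it an adjusted p of 0.00422. Without RvD6 replicates 8 and 9 it was -0.87, with an adjusted p of 0.104 (edgeR). The TPM ratio of H2-Aa to H2-Ab1 ran from 0.414 to 0.844 over the 15 libraries, a 2.04-fold range.

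The other beta chain, H2-Eb1 (chromosome 17, 34305867 to 34316674), varied more between libraries. It had 7.35, 35.1, 58.9, 87.3 and 49.9 CPM in vehicle, 130.2, 40.2, 4.87, 40.1 and 58.2 in RvD6, and 31.0, 33.5, 74.7, 34.0 and 88.8 in RvD6si. The highest and lowest libraries were both in RvD6, and the 26.7-fold range compares with 2.29-fold for H2-Ab1. Its ratio to H2-Ab1 in TPM ran from 0.0633 to 1.70. None of the comparisons of H2-Eb1 had an absolute log2 fold change above 0.21, each with an SE of 0.60, and the interval for RvD6si against RvD6 ran from -1.33 to 1.18. An antisense gene, Gm20513, overlaps H2-Eb1, and the counts did not use strand.

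H2-Ea-ps, the partner alpha chain of H2-Eb1 and annotated in the reference as a pseudogene, is not a member and was named after its values had been seen. It had 32.5 CPM in vehicle replicate 3, 34.4 in RvD6 replicate 9 and 19.6 in RvD6si replicate 13. In the 12 other libraries it was between 0 and 1.81 CPM. It was high in a single library of each group and did not pass the filter. H2-Eb2, another beta chain gene, had 1.45 CPM in vehicle replicate 3, 1.71 in RvD6 replicate 9 and 0.989 in RvD6si replicate 12, and at most 0.137 elsewhere.

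**Figure D4:**
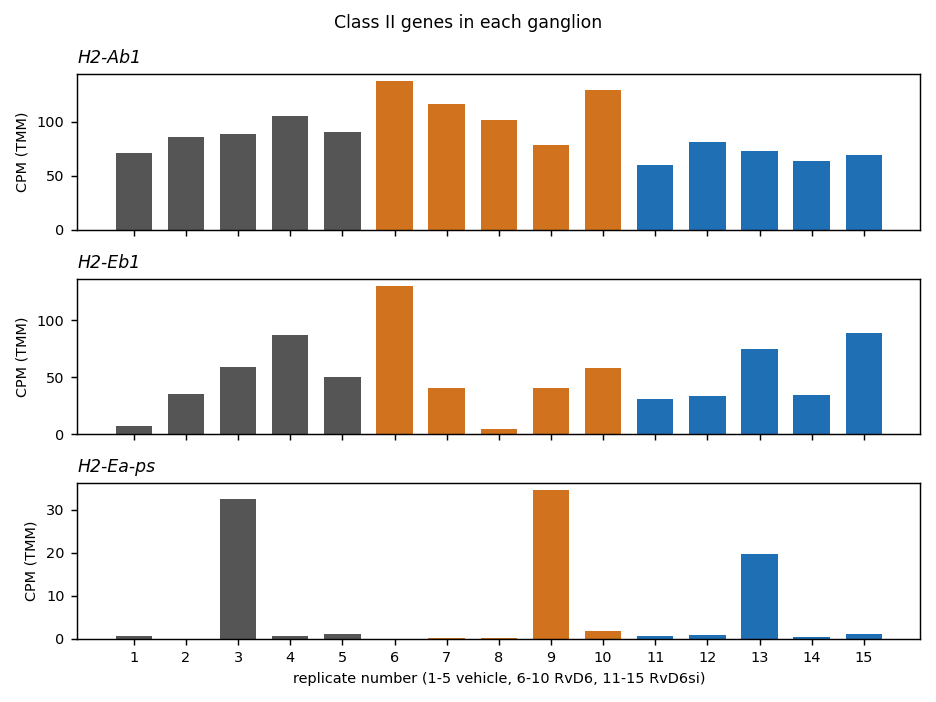
CPM of H2-Ab1, H2-Eb1 and H2-Ea-ps in each of the 15 ganglia. H2-Ab1 runs from 59.8 to 137 CPM, H2-Eb1 from 4.87 to 130.2, and H2-Ea-ps stands out in replicates 3, 9 and 13.

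The invariant chain Cd74 (chromosome 18, 60803848 to 60812652), the chaperone of class II, had 13.2, 14.4, 15.0, 11.0 and 16.5 CPM in vehicle. In RvD6 it had 22.5, 19.7, 18.5, 65.8 and 31.5 CPM, and in RvD6si 22.4, 17.9, 15.6, 16.8 and 29.2. All 5 RvD6 libraries lay above all vehicle libraries, as for 2.15% of all genes, and 4 of 5 RvD6si libraries did. RvD6 against vehicle gave a log2 fold change of 1.17 ± 0.31 (2.25-fold, 95% interval 0.51 to 1.82, unadjusted p = 0.0015, adjusted p = 0.148, edgeR), and DESeq2 gave an adjusted p of 0.0241. Without RvD6 replicate 9, a muscle-rich library, it was 0.71 (adjusted p = 0.343, edgeR). RvD6si against vehicle gave 0.53 ± 0.31 (adjusted p = 0.422, edgeR) and 0.37 without replicate 15. The stereoisomers differed by -0.63 (95% interval -1.29 to 0.02, adjusted p = 0.576, edgeR), and by -0.18 without RvD6 replicate 9. The ratio of Cd74 to H2-Ab1 in TPM ran from 0.160 to 1.29.

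Both transactivators were near the limit of detection. Ciita (chromosome 16, 10480059 to 10528418) had 1 to 41 counts per library, or 0.825 to 2.01 CPM in vehicle, 0.557 to 5.03 in RvD6 and 0.11 to 2.49 in RvD6si. Nlrc5 (chromosome 8, 94434356 to 94527272) had 0 to 29 counts, or 0 to 2.24 CPM in vehicle, 0.325 to 3.56 in RvD6 and 0.384 to 3.40 in RvD6si. The groups overlapped for both. The 95% intervals for RvD6 against vehicle, from -1.05 to 1.92 for Ciita and from -0.75 to 3.19 for Nlrc5, were wide and included 0. Low counts and the spread between libraries of a group were not told apart here.

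Beyond the members, 71 further genes of the pathway were followed, of which 70 had a row and 58 were tested. Of these, 1 was called in RvD6si against vehicle (0.67% of all genes), 0 in RvD6 against vehicle and 0 in RvD6si against RvD6. At an unadjusted p under 0.05, 4 were higher and 4 lower in RvD6si against vehicle (8.69% and 7.3% of all genes), 9 higher and 2 lower in RvD6 against vehicle (7.63% and 5.99%), and 0 higher and 3 lower in RvD6si against RvD6 (4.18% and 4.64%). By DESeq2 2, 1 and 0 pathway genes were called in these 3 comparisons, beside 8.13%, 1.92% and 0.936% of all its genes. In RvD6si against vehicle it gave no adjusted p for 19 of the 58 genes.

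The gene called was Lgmn, which encodes legumain, a lysosomal protease that cuts antigens and the invariant chain. It had 44.3, 44.6, 42.6, 59.1 and 36.4 CPM in vehicle, 76.9, 64.4, 62.2, 115 and 40.1 in RvD6, and 164, 65.8, 98.9, 93.1 and 87.7 in RvD6si. All 5 RvD6si libraries lay above all vehicle libraries, as for 2.45% of all genes. Lgmn rose in RvD6si by a log2 fold change of 1.17 ± 0.26 (2.25-fold, adjusted p = 0.043, edgeR). DESeq2 gave Lgmn an adjusted p of 0.000928 in this comparison. The edgeR call was kept in 3 of the 15 fits that left out a library, with adjusted p from 0.0232 to 0.145. RvD6 against vehicle gave 0.66 ± 0.26 on the log2 scale (adjusted p = 0.279, edgeR), and the stereoisomers differed by 0.51 (95% interval -0.03 to 1.04).

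Of 12 genes of class I peptide processing, Canx, a chaperone of new heavy chains, had 224 ± 31.1 CPM in vehicle (SD, n = 5), 289 ± 52.9 in RvD6 and 329 ± 65.3 in RvD6si. All 5 RvD6si libraries lay above vehicle, as for 2.45% of all genes (log2 fold change 0.56, adjusted p = 0.0918, edgeR). DESeq2 called Canx in this comparison, with an adjusted p of 0.0162. Erap1, which trims peptides in the endoplasmic reticulum, had 5.85 ± 2.74, 15.0 ± 7.19 and 12.6 ± 6.76 CPM, and its log2 fold changes against vehicle were 1.35 for RvD6 and 1.10 for RvD6si (adjusted p = 0.209 and 0.234, edgeR). Psmb10, an immunoproteasome subunit, was lower than vehicle at 47.3 ± 9.33 CPM, with 32.2 ± 3.11 in RvD6 and 32.2 ± 11.6 in RvD6si (adjusted p = 0.279 and 0.209, edgeR).

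Among the class I-like genes, H2-T23, which encodes the nonclassical Qa-1 chain, had 8.69 ± 3.92 CPM in vehicle, 12.1 ± 2.19 in RvD6 and 5.31 ± 2.28 in RvD6si. All RvD6si libraries lay below all RvD6 libraries, as for 1.1% of all genes (log2 fold change -1.20, 95% interval -1.98 to -0.42, adjusted p = 0.284, edgeR). Fcgrt, the neonatal Fc receptor chain, had 102 ± 8.90, 77.8 ± 15.9 and 71.8 ± 20.2 CPM (adjusted p = 0.392 for RvD6 and 0.205 for RvD6si against vehicle, edgeR). In class II loading, the lysosomal protease Ctsl had 860 ± 38.5 CPM in vehicle, 678 ± 146 in RvD6 and 665 ± 124 in RvD6si (adjusted p = 0.322 and 0.222, edgeR). March1, the ubiquitin ligase that removes class II from the surface, had 1.97 ± 1.82, 6.23 ± 1.89 and 3.26 ± 1.67 CPM, with a log2 fold change of 1.65 in RvD6 against vehicle (adjusted p = 0.223, edgeR).

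Of the promoter factors and interferon gamma signalling genes, 15 were tested. Nfyb, a subunit of the Y box factor NF-Y, had a log2 fold change of 0.61 in RvD6 (adjusted p = 0.223), and Ifngr1, a chain of the interferon gamma receptor, -0.41 in RvD6si (adjusted p = 0.257), both against vehicle by edgeR. Of the 10 costimulation genes 4 were tested. Cd86, a ligand of CD28, had 0.508 ± 0.617 CPM in vehicle, 4.16 ± 4.26 in RvD6 and 0.833 ± 0.757 in RvD6si (adjusted p = 0.250 for RvD6 against vehicle, edgeR). Icam1 and Cd274 had group means from 1.49 to 4.23 CPM and adjusted p of at least 0.647 against vehicle (edgeR).

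As a description of likeness, log2 CPM was correlated over the 15 libraries, which also share differences in depth and tissue content, with all 16557 other tested genes. The genes most like Cd74 were Cotl1 (Pearson r = 0.903, Spearman rho = 0.914), Mob1a (0.866 and 0.907), Arrdc3 (0.845 and 0.839), Gm5513 (0.837 and 0.804) and Sdhd (0.834 and 0.775). Without replicates 9 and 10, the libraries farthest from the median of Cd74, r ran from 0.724 to 0.905 for these genes. Cd74 itself had r = 0.489 with H2-Aa and 0.017 with H2-Ab1. The genes most like H2-K1 were Trmt61a (r = 0.861, rho = 0.864), Palm2 (0.795 and 0.764), Gm13403 (0.791 and 0.743), Gm8116 (0.765 and 0.739) and Litaf (0.762 and 0.846), with r from 0.638 to 0.783 without replicates 11 and 15. H2-K1 had r = 0.014 with H2-D1 and 0.357 with B2m.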

How the data were processed

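RNA of 15 TG was made into libraries with an adapted Smart-seq2 protocol, which does not keep strand. The authors aligned reads to GRCm38 (GENCODE M22) with Rsubread 1.34.6 and deposited raw counts per gene from featureCounts (Subread 1.6.5 in the methods; 1.5.0-p1 in the file header), not normalized. Gene symbols and positions came from GENCODE M21, which named 99.7% of the identifiers. The members and the gene lists were chosen with earlier results of these data known. Groups came from the labels. Libraries held 4125962 to 9903396 counts.

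Counts were tested with edgeR 4.0.16 in R 4.3.3 (quasi-likelihood F test, TMM, 15 samples and 3 groups in one fit, minimum count 10 and minimum total 15, Benjamini-Hochberg over 16567 genes, threshold 0.05). SE is the absolute log2 fold change over the root of F, and intervals use its degrees of freedom. Neither labels nor methods name a batch, and p-values set the differences between groups against the spread between these libraries. CPM are TMM-scaled, and TPM use exonic length. DESeq2 1.42.0, the comparison of 2 groups alone, RLE scaling, other filters, removal of the length trend (lowess, span 0.3), exact permutation of log2 CPM (prior count 2), each sample left out and, added after the data were seen, RvD6 replicates 8 and 9 left out were the alternatives. Named were all members and, from each pathway list, every called gene, the 2 smallest p against vehicle, and the 5 genes most like Cd74 and H2-K1. The motif letters were chosen after a search with longer forms of the kappa B site and the response element had been seen, and an X box core was searched in a long and a short form and left out, the short form being common to many promoters. A gene that this rule names is not reported here. The fit was tested on simulated data. Python 3.11.15, SciPy 1.17.1 and matplotlib 3.10.9 made tables and figures.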

Additional observations from a re-analysis of the deposited data

Results flagged for a closer look

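In groups of 5, a sample was marked when its gap to the next was above 0.71 of the group's range. Of the 30 groups of member values 1 was marked, where chance gives about 1.5, and of the 36 groups of summed marker levels 7 were, where chance gives about 1.8. The marker lists share the same libraries, so marks of 1 library in several lists are not separate observations. The member was Cd74, at 65.8 CPM in RvD6 replicate 9 against 31.5 in the next library. H2-Ea-ps and H2-Eb2 were named after their values had been seen, so their marks have no chance level. H2-Ea-ps was marked in each group, at 32.5 (vehicle replicate 3), 34.4 (RvD6 replicate 9) and 19.6 CPM (RvD6si replicate 13), where the next libraries had 1.03, 1.81 and 1.13. H2-Eb2 was marked at 1.45 (vehicle replicate 3), 1.71 (RvD6 replicate 9) and 0.989 CPM (RvD6si replicate 12), on few counts. RvD6si replicate 15 was marked for summed B lineage (166 CPM), neutrophil and precursor (1967), erythroid (12030) and, as the lowest, fibroblast genes (1182). RvD6 replicate 10 was marked for B lineage genes (210.1). Vehicle replicate 4 was marked for neutrophil and precursor (590.4) and skeletal muscle genes (170.3).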

How the results depend on the processing

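No paired analysis was possible because the groups share no replicate numbers. The count of members called stayed at 0 in every edgeR fit, with each of the 15 samples left out included. DESeq2 called 2 in RvD6 against vehicle (Tap1, log2 fold change 1.35, and Cd74, 1.18) and 1 in RvD6si against RvD6 (H2-Ab1, -0.71). The number of all genes called, 111 in RvD6si against vehicle, was 315 with a minimum of 10 counts in every sample, 63 with the length trend removed and 920 by DESeq2, and 0 to 229 with a sample left out, 0 without RvD6si replicate 11. In RvD6 against vehicle, 0 became 38 with 2 groups only, 56 with no filter, 24 with the minimum of 10 and 369 by DESeq2, and ran from 0 to 51 with a sample left out, 51 without RvD6si replicate 15. In RvD6si against RvD6, 39 became 17, 59, 23 and 185 in the same order, 2 without RvD6 replicates 8 and 9, and 2 to 156 with a sample left out. The causes were not tested.

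Of 232 other values of single members, 2 turned direction, both H2-Eb1 on mean log2 CPM (-0.026 in RvD6 against vehicle and 0.38 in RvD6si against RvD6). With a sample left out, 15 of 450 turned. The ranges were -0.21 to 0.017 (H2-K1), -0.21 to 0.01 (H2-Aa) and -0.15 to 0.47 (H2-Eb1) in RvD6si against vehicle, -0.078 to 0.16 (H2-D1), -0.41 to 0.54 (H2-Eb1) and -0.23 to 0.67 (Ciita) in RvD6 against vehicle, and -0.36 to 0.54 (H2-Eb1) in RvD6si against RvD6. With group means removed, correlations turned for Cd74 with Tap1 (-0.075) and H2-Ab1 (-0.533), and for H2-K1 with Ciita (-0.126), H2-Ab1 (-0.008), H2-Aa (-0.1) and H2-D1 (-0.106). Ciita and Nlrc5 rest on at most 41 and 29 counts per library, which limits their precision.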
